A study of Homo sapiens with 6 samples.

Results

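Collagen chain genes were followed across 3 groups of A549 lung adenocarcinoma cells that differ in the transcription factor HOXB9. Members were the protein-coding genes of the deposited tables whose symbol has the form of a collagen chain (COL, a type number, A and a chain number), which gave 44 of 58735 genes. They were sorted by structure into 11 fibrillar chains, 6 type IV chains of basement membranes, 10 FACIT chains (fibril-associated collagens with interrupted helices), 5 type VI chains, 4 transmembrane chains, 2 multiplexins and 6 others. Reads were found for 42 of the 44, and 28 passed the filter on low counts and were tested. The filter keeps a gene that is high in a single group, so these 28 are not a picture of all 44.

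RNA was sequenced from A549 cells, an established human lung adenocarcinoma line, grown in RPMI medium with serum and stably transduced with lentivirus in every group. The WT group carried PLVX-HOXB9, the T133A group carried PLVX-HOXB9-T133A (HOXB9 with a threonine changed to alanine), and the KO group was labelled PLVX-HOXB9 KO. Each group had 2 libraries, and neither untreated cells nor an empty vector was among the samples, so WT here means cells given the HOXB9 lentivirus. The labels do not say whether the 2 libraries of a group were separate cultures, whether a line was a clone or a pool, or whether the cells' own HOXB9 was intact outside the KO group. P-values therefore measure the spread between these libraries, which may be technical.

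Collagens are secreted or membrane proteins whose chains wind around each other into a rigid helix, and in some types different chains assemble together. Fibrillar chains form the cables of connective tissue, type IV chains form the sheet under epithelia, type VI forms beaded filaments near cells, and FACIT chains decorate fibrils. Carcinoma cells of epithelial origin are known chiefly for type IV and other basement membrane collagens, while most fibrillar collagen of a tumour comes from fibroblasts. Newly made chains are hydroxylated, folded by chaperones, exported, trimmed and cross-linked, and are later bound by receptors and cut by proteases.

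Total counts per library ran from 16299059 to 18745432, and collagen genes took 0.115% to 0.15% of them. HOXB9 itself stood at 223 and 217 CPM (read counts scaled to a common library size) in WT, at 275 and 210.3 in T133A, against 14.5 and 15.4 in KO. The KO libraries were therefore low for the targeted gene, by 3.88 on the log2 scale (SE 0.135, adjusted p = 3.27e-16), while T133A and WT overlapped. Keratin genes KRT8 and KRT18 and the A549 aldehyde dehydrogenase gene ALDH1A1 were abundant in every library, ALDH1A1 at 4956 to 9884 CPM. Of 10 epithelial and A549 markers, 6 were lower (60%) and 1 was higher (10%) in KO than in WT. The 6 were EPCAM (log2 -3.1), MUC1 (-2.76), AKR1C1 (-2.09), ALDH1A1 (-0.94), CDH1 (-0.88) and AKR1B10 (-0.35). KRT7 was the marker higher in KO (log2 1.02). Of all tested genes, 23.0% were lower and 23.6% higher, and the part of these markers in the collagen results was not tested. Among 10 fibroblast markers, PDGFRA, PDGFRB, FAP, POSTN, PDPN and MFAP5 were at or near 0 in every library (0 to 0.529 CPM), DCN reached 1.12 CPM and THY1 4.73, while ACTA2 (5.90 to 14.8 CPM) and LUM (20.6 to 25.5 CPM in WT and T133A) were clearly present. Haematopoietic and endothelial markers were likewise near 0 (ERG at 0 in every library) apart from CD14, at 5.28 to 12.8 CPM, and PECAM1, at 0.39 to 1.72 CPM in WT and T133A and 0 to 0.0607 in KO. GC-rich genes as a whole stood higher in T133A replicate 1 than in replicate 2 (Spearman rho 0.50 across tested genes, which are not independent replicates). The change itself also ran with GC content, with rho 0.26 for KO minus WT, 0.17 for T133A minus WT and -0.19 for T133A minus KO, and KO replicate 1 minus replicate 2 gave -0.29. The tested collagen genes were GC-rich, with a median of 55.7% against 48.4% for all tested genes. The mitochondrial share of counts was 4.45% and 5.60% in KO against 7.84% to 8.91% in the other groups, and its part in the results was not tested.

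Collagen classes differed between the groups in opposite directions, and the summed collagen level varied less than its makeup. Summed over all members, the level per kilobase of exon was 129.2 and 129.3 CPM per kilobase in WT, 161 and 149 in T133A, against 136 and 125 in KO, and the WT and KO ranges overlapped. Fibrillar chains made up 34.0% and 33.5% of that sum in WT, 34.5% and 36.1% in T133A, against 19.6% and 18.6% in KO. Type VI chains made up 5.38% and 5.65% in WT, 7.84% and 6.20% in T133A, against 22.5% and 23.3% in KO. In KO, type VI thus held a larger share than the fibrillar chains, the reverse of the order in WT and T133A. FACIT chains were 13.7% and 13.6% in WT libraries, 8.42% and 8.89% in T133A libraries, and 2.97% and 2.95% in KO, with no overlap between any of the 3 groups. Type IV shares spanned a narrower range, at 19.7% and 19.4% in WT, 21.4% and 22.5% in T133A, against 22.8% and 22.9% in KO, again without overlap. The summed type IV level averaged 25.3 CPM per kilobase in WT, 34.0 in T133A and 29.9 in KO. These shares are descriptions, with no test of their own.

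**Figure D1:**
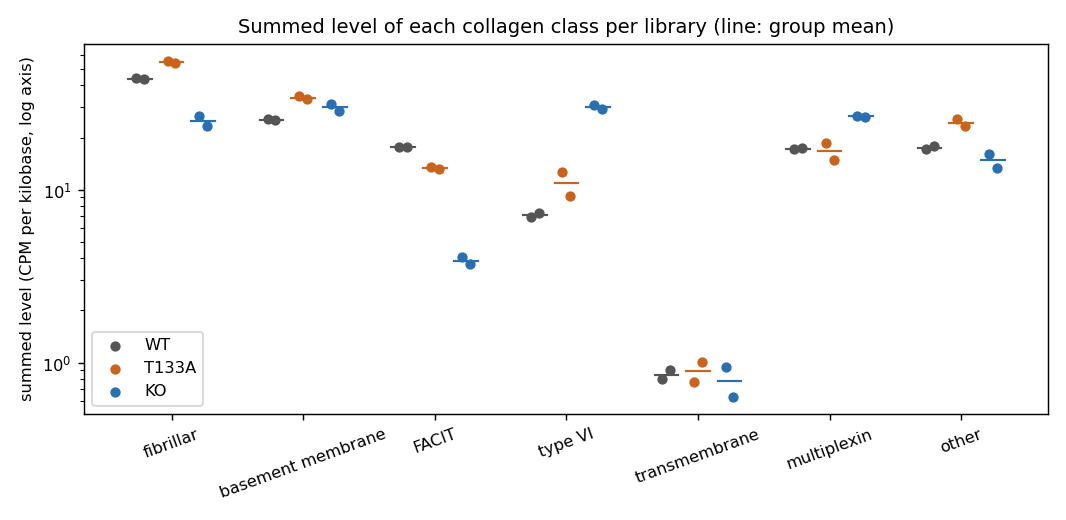
Summed level of each collagen class in every library, in CPM per kilobase of exon on a log axis; points are libraries and lines are group means. Type VI is at about 7 in WT and about 30 in KO, FACIT is above 17 in WT and at about 4 in KO, and the fibrillar class is lowest in KO.

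Against WT, 8 of the 28 tested collagen genes were higher in T133A (28.6%) and 4 were lower (14.3%), where 5.58% and 3.97% of all 16340 tested genes were, so that 12 of 28 were called against 9.55% of all. In KO, 8 were higher (28.6%) and 13 were lower (46.4%), against 23.6% and 23.0% of all tested genes (21 of 28 in either direction, background 46.6%), so the share higher in KO was near the background and the share lower was above it. Between the 2 altered groups, 14 collagen genes were higher in T133A than in KO (50%, background 20.3%) and 4 were lower (14.3%, background 19.6%), which makes 18 of 28 in either direction (background 39.9%). The median log2 fold change of the tested collagens was 0.12 for T133A with WT, -0.52 for KO with WT and 0.62 for T133A with KO, where that of all tested genes was 0.00, 0.00 and -0.01. The 3 comparisons share libraries and are not independent of each other. COL15A1, called higher in T133A, passed the low-count filter through T133A alone, and COL14A1, called lower in KO, through WT alone. COL13A1, called higher in KO, had both libraries over the filter level in KO only. The filter favoured these calls, which are part of the shares above. COL4A1, COL4A2, COL5A1 and COL6A2 were higher than WT in both altered groups, and COL4A3, COL4A4, COL12A1 and COL26A1 were lower in both. COL8A1 was the single gene called in opposite directions, higher in T133A and lower in KO.

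**Figure D2:**
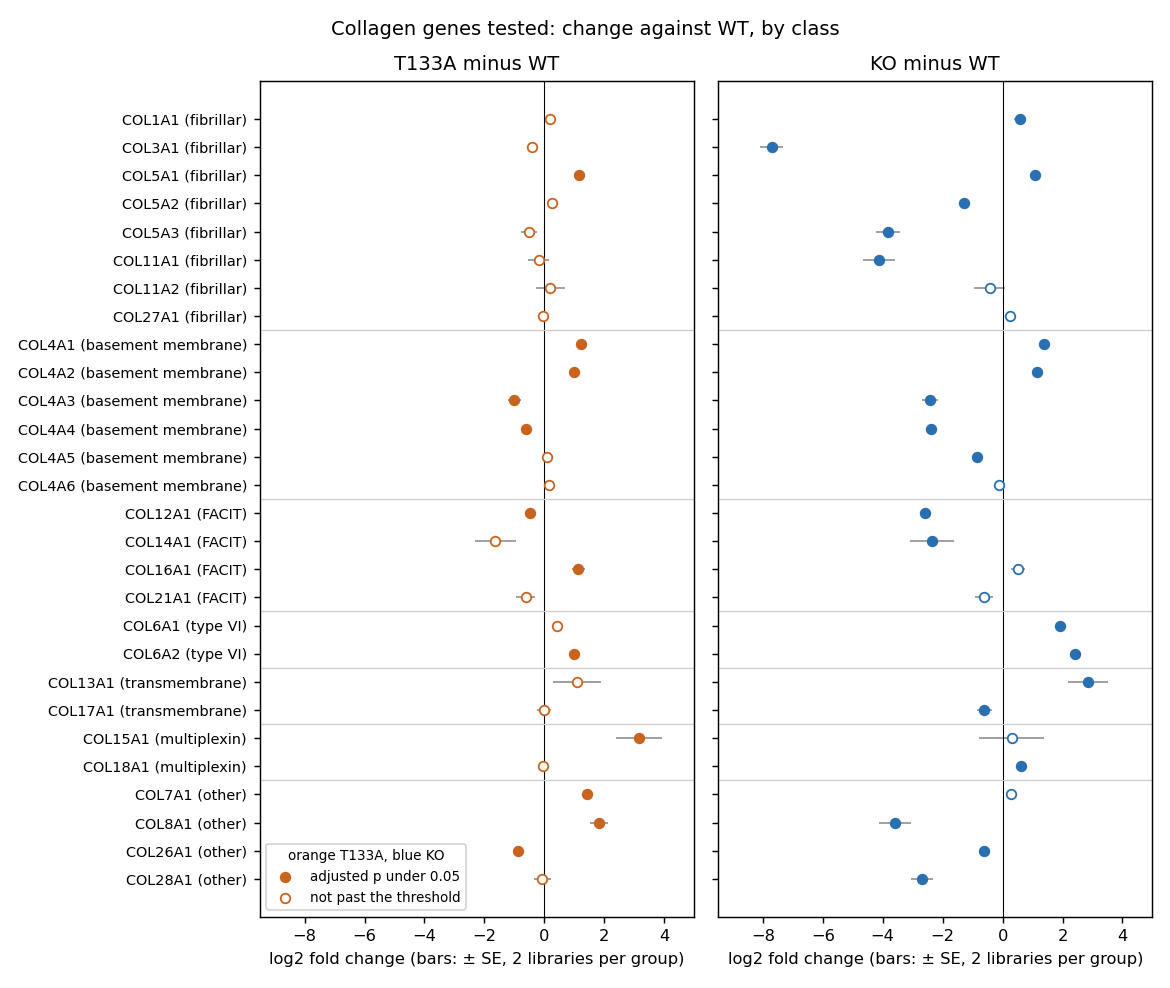
Log2 fold change of each of the 28 tested collagen genes against WT, with SE bars; T133A is on the left and KO on the right, filled points passed an adjusted p of 0.05, and 2 libraries stand behind each group. The KO panel spreads further than the T133A panel, from -7.70 for COL3A1 to 2.85 for COL13A1.

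In 2 of the 3 neighbouring pairs of type IV collagen genes, both partners differed from WT in the same direction. These genes encode the chains of the basement membrane network and lie in head-to-head pairs, which are transcribed away from each other. COL4A1 (chr13:110148963-110307233, minus strand) and COL4A2 (chr13:110305812-110513209, plus strand) overlap by 1422 bases as annotated in the deposited tables (GRCh38). COL4A4 (chr2:227002711-227164453, minus) and COL4A3 (chr2:227164565-227314792, plus) are 111 bases apart, and COL4A6 (chrX:108155607-108439497, minus) and COL4A5 (chrX:108439844-108697545, plus) are 346 bases apart. The promoter windows of the 6 genes are shown because partners moved together in those 2 pairs. All 3 pairs share part of their windows, also the pair that did not move together, and a link between sharing and movement was not tested. Each runs from 250 bases before to 50 after the RefSeq start site (GRCh38.p14), 5′ to 3′ on the gene's own strand, and capitals mark CCAAT and GGGCGG on either strand.
COL4A1, chr13:110307108-110307407, minus strand: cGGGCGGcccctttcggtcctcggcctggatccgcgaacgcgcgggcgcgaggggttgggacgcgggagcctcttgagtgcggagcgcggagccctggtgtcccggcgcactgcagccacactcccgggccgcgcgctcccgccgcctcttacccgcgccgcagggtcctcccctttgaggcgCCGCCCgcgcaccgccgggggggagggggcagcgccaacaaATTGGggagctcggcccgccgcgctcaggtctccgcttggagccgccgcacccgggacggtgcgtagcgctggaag
COL4A2, chr13:110307034-110307333, plus strand: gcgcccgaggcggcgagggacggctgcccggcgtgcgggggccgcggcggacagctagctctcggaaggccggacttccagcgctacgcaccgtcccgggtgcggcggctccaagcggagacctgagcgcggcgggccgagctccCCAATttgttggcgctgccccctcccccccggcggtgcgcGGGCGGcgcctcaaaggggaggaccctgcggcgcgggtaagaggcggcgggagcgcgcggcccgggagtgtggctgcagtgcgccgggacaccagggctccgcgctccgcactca
COL4A3, chr2:227164374-227164673, plus strand: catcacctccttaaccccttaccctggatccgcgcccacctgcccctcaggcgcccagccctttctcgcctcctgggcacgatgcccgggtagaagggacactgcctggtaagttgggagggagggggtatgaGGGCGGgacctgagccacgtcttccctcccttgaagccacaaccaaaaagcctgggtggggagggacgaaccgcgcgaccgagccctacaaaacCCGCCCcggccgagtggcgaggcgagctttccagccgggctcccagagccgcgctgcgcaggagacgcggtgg
COL4A4, chr2:227164156-227164455, minus strand: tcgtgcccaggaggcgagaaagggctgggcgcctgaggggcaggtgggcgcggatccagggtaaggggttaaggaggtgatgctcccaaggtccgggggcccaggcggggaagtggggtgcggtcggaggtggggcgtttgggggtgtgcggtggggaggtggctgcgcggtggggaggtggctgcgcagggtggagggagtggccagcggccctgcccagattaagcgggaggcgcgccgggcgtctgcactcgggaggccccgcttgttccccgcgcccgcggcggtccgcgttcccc
COL4A5, chrX:108439588-108439887, plus strand: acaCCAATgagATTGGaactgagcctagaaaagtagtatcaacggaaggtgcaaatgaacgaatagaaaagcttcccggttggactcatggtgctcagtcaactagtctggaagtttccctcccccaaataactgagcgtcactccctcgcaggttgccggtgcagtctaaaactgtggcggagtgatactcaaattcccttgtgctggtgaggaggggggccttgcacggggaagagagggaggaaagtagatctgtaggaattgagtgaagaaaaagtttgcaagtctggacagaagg
COL4A6, chrX:108439409-108439708, minus strand: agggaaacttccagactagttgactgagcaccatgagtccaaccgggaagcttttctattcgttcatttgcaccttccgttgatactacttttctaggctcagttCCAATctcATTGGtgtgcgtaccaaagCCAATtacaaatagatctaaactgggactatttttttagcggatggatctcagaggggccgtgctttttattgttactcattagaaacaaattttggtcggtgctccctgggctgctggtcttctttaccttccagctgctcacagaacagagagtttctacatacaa
The RefSeq start sites of COL4A1 and COL4A2 are 127 bases apart, and their windows share 226 bases. Those of COL4A3 and COL4A4 are 419 bases apart and share 82 bases, and those of COL4A5 and COL4A6 are 380 bases apart and share 121 bases. The COL4A1 window holds CCAAT (the letters NF-Y binds) once and GGGCGG (the GC box letters) at 2 places, and the COL4A2 window holds each once. GGGCGG is found at 2 places in the COL4A3 window and CCAAT at none, while the COL4A4 window has neither. The COL4A5 and COL4A6 windows hold CCAAT at 2 and 3 places and no GGGCGG, and at 49.3% and 43.7% GC they are poorer in GC than the other 4 (67.7% to 77.7%). The RefSeq table held windows for 32 of the 44 members, 22 of them tested. CCAAT was present in 8 of those 22 (36.4%) and in 34.6% of all 35116 windows, and GGGCGG in 14 of 22 (63.6%) against 45.0%. TGANTCA (the AP-1 letters) was in 0 of 22 windows against 7.71% of all, and TTTATNG, letters of the kind that posterior HOX proteins bind, in 4 of 22 against 9.73%. All motifs were sought on both strands, and a match is a description of letters, not a site in use. COL1A1, COL1A2, COL2A1, COL3A1, COL5A2, COL6A1, COL6A5, COL8A1, COL9A3, COL14A1, COL20A1 and COL22A1 had no entry.

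The COL4A1 and COL4A2 pair, whose chains form the type IV network found under nearly all epithelia, was higher in both altered groups. COL4A1 was at 44.4 and 39.3 CPM in WT, 96.2 and 98.0 in T133A, against 112 and 107 in KO. COL4A2 was at 93.8 and 107 CPM in WT, 219.7 and 176 in T133A, against 234 and 211 in KO. For both genes every T133A and KO library lay above both WT libraries. COL4A1 rose by 1.22 (SE 0.11, adjusted p = 3.94e-08) in T133A and by 1.39 (SE 0.11, adjusted p = 5.89e-10) in KO on the log2 scale. COL4A2 rose by 0.98 (SE 0.116, adjusted p = 2.8e-06) and by 1.15 (SE 0.116, adjusted p = 3.45e-08). T133A and KO did not differ past the threshold for either gene (log2 -0.17 for both, SE 0.105 and 0.114, adjusted p = 0.20 and 0.242), and without T133A replicate 1 the COL4A2 difference passed it (log2 -0.32, adjusted p = 0.0214). Because the annotated bodies overlap and the strand setting of the counting is unknown here, reads in the shared stretch cannot be assigned to one gene with certainty.

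The COL4A3 and COL4A4 pair, known for the basement membranes of kidney and lung alveoli, went the other way. COL4A3 was at 8.77 and 10.0 CPM in WT, 3.51 and 5.94 in T133A, against 1.70 and 1.78 in KO. COL4A4 was at 23.0 and 19.6 CPM in WT, 14.4 and 13.4 in T133A, against 4.07 and 4.09 in KO. In both genes the 3 groups formed a descending order from WT to T133A to KO with no overlap. COL4A3 fell by 0.99 (SE 0.232, adjusted p = 0.00673) in T133A and by 2.43 (SE 0.266, adjusted p = 1.17e-07) in KO, and T133A stood above KO by 1.44 (SE 0.282, adjusted p = 0.000299). COL4A4 fell by 0.61 (SE 0.153, adjusted p = 0.0111) in T133A and by 2.38 (SE 0.175, adjusted p = 1.93e-10) in KO, and T133A stood above KO by 1.77 (SE 0.179, adjusted p = 4.47e-08). The falls in T133A rest on few libraries. Without WT replicate 1 the COL4A4 call was lost (adjusted p = 0.267), and without WT replicate 2 or T133A replicate 1 the COL4A3 call was lost (adjusted p = 0.0557 and 0.12, the latter at a log2 change of -0.65).

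The COL4A5 and COL4A6 pair, on chromosome X, did not move as a unit. COL4A5 was at 90.3 and 86.5 CPM in WT, 87.0 and 99.9 in T133A, against 50.9 and 46.9 in KO. COL4A6 was at 62.3 and 61.3 CPM in WT, 69.7 and 68.2 in T133A, against 59.7 and 54.5 in KO. Both KO libraries of COL4A5 were far below the rest, while COL4A6 spanned a narrow range in all groups. COL4A5 fell by 0.85 (SE 0.112, adjusted p = 1.64e-06) in KO and differed little in T133A (log2 0.08, SE 0.109, adjusted p = 0.719). COL4A6 passed no test against WT (log2 0.16 and -0.11), and its T133A to KO difference of 0.27 (SE 0.109, adjusted p = 0.0494) lost its call in 12 of the alternatives run, with adjusted p between 0.0535 and 0.204. Per length, the COL4A5 to COL4A6 ratio was 0.977 to 1.15 in WT and T133A and 0.667 and 0.673 in KO. The COL4A1 to COL4A2 ratio was 0.481 to 0.730 over all 6 libraries, with the groups overlapping.

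**Figure D3:**
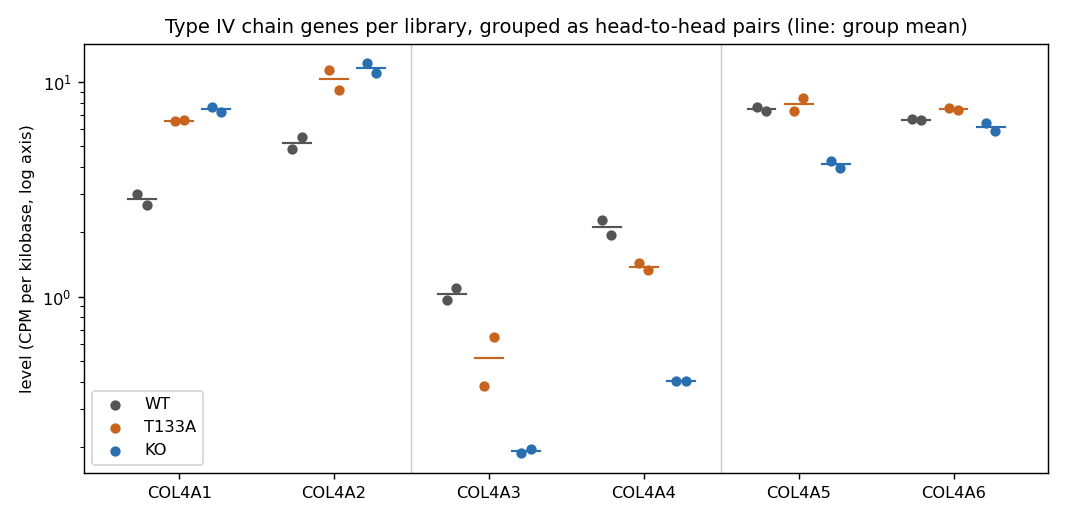
Level of the 6 type IV chain genes in every library, in CPM per kilobase of exon on a log axis, set side by side as head-to-head pairs; points are libraries and lines are group means. COL4A1 and COL4A2 are higher in T133A and KO than in WT, COL4A3 and COL4A4 step down from WT to T133A to KO, and of the last pair COL4A5 is lower in KO.

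Fibrillar chains divided in KO, with 4 lower, 2 higher and 2 not called of the 8 tested, while T133A differed from WT in 1. The 50% lower in KO stand against 23.0% of all tested genes, whereas the 25% higher in KO and the 12.5% called in T133A are near the 23.6% and 9.55% of all. COL5A2, a chain of type V collagen that sets the diameter of fibrils, was the most abundant collagen gene per length in WT and T133A, at a mean of 34.5 CPM per kilobase in WT, 41.4 in T133A and 14.1 in KO. Its libraries stood at 258 and 256 CPM in WT, 307 and 311 in T133A, against 114 and 96.0 in KO. The groups did not overlap, with KO lowest and T133A highest. COL5A2 fell by 1.30 (SE 0.106, adjusted p = 1.03e-09) in KO. T133A exceeded WT by 0.26 (SE 0.103, adjusted p = 0.116), short of the threshold except under the GC and length correction (adjusted p = 0.0299), and exceeded KO by 1.56 (SE 0.106, adjusted p = 4.93e-11).

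COL5A1, the other main chain of type V collagen, moved differently from its partner. It was at 45.7 and 41.0 CPM in WT, 107 and 85.8 in T133A, against 95.5 and 86.3 in KO. Every altered library was above both WT libraries, and T133A and KO overlapped. COL5A1 rose by 1.15 (SE 0.122, adjusted p = 5.13e-07) in T133A and by 1.07 (SE 0.122, adjusted p = 2.22e-07) in KO. Per length, the COL5A1 to COL5A2 ratio was 0.118 and 0.107 in WT, 0.233 and 0.184 in T133A, against 0.560 and 0.599 in KO, so the 3 groups were separate and KO was farthest from WT. COL5A3, a less common type V chain, was at 4.73 and 5.13 CPM in WT, 4.14 and 2.82 in T133A, against 0.486 and 0.215 in KO. It fell by 3.82 (SE 0.393, adjusted p = 4.7e-08) in KO and did not pass the threshold in T133A (log2 -0.50, adjusted p = 0.285).

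COL3A1, the type III chain found with type I in soft tissue, was nearly lost in KO. It lies on chromosome 2 (chr2:188974320-189012746, plus strand), tail to tail with COL5A2 at a distance of 19149 bases. COL3A1 had 228 and 241 counts in WT, 182 and 164 in T133A, against 1 count in each KO library. In CPM this was 13.3 and 13.4, then 10.5 and 9.64, then 0.0607 and 0.0538, so KO lay below all others by orders of magnitude and T133A lay just under WT. The pooled ratio of WT to KO counts was 234 (exact 95% counting interval 64.6 to 1942) and that of T133A to KO was 176 (48.4 to 1461), with adjusted p = 1.65e-13 and 7.84e-13. T133A was below WT by 0.41 on the log2 scale (SE 0.172, adjusted p = 0.146), a difference that passed under the GC and length correction (adjusted p = 0.0476). Among the fibroblast markers, the small proteoglycan gene LUM ran parallel, at 20.6 to 25.5 CPM in WT and T133A and 0.243 and 0.215 in KO, whereas ACTA2 and THY1 were higher in KO. The summed fibroblast list was 29.2 and 29.8 CPM in WT, 31.2 and 34.7 in T133A, against 18.5 and 19.1 in KO. Of its 4 tested members 2 were lower and 2 higher in KO (50% each, background 23.0% and 23.6%). DCN and FAP were at 0 in both KO libraries and at most 1.12 CPM elsewhere, and the part of these markers in the COL3A1 result was not tested. In bulk RNA, fewer cells that make a transcript and less of it per cell cannot be told apart.

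Type I collagen was scarce. COL1A1, its principal chain, was at 6.43 and 6.36 CPM in WT, 8.80 and 5.88 in T133A, against 9.04 and 9.90 in KO. Both KO libraries were above all others and T133A overlapped WT. COL1A1 rose by 0.57 (SE 0.203, adjusted p = 0.0255) in KO, a call lost with DESeq2 (adjusted p = 0.0758) and without WT replicate 1, WT replicate 2 or KO replicate 2 (adjusted p = 0.0883, 0.102 and 0.136). T133A was below KO by 0.37 (adjusted p = 0.152), which passed without T133A replicate 1 (log2 -0.67, adjusted p = 0.0214). Its partner COL1A2, singled out after its values were seen, had at most 2 counts in any library, so the chain needed beside COL1A1 in common type I collagen was at the floor of detection. COL11A1, a minor chain that nucleates fibrils in cartilage, was at 2.69 and 2.57 CPM in WT, 1.90 and 2.70 in T133A, against 0.243 and 0.0538 in KO. Its pooled WT to KO count ratio was 18.4 (7.6 to 58.0; adjusted p = 1.79e-06), and T133A overlapped WT. COL11A2 (0.502 to 2.05 CPM) and COL27A1 (17.9 to 25.3 CPM) passed no test in any comparison, except that COL27A1 was lower in T133A than in KO when KO replicate 2 was left out (adjusted p = 0.0331).

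Type VI chain genes were higher in KO, and of the 2 tested COL6A2 was also higher in T133A. COL6A1 and COL6A2 lie on chromosome 21 on the same strand, 93046 bases apart (chr21:45981737-46005050 and chr21:46098097-46132849), and their chains join a further chain to form microfibrils. COL6A1 was at 26.6 and 26.8 CPM in WT, 40.9 and 30.2 in T133A, against 100.2 and 99.9 in KO. COL6A2 was at 10.6 and 12.3 CPM in WT, 26.8 and 19.1 in T133A, against 64.5 and 56.5 in KO. In both genes T133A lay between WT and KO without overlap, and its replicate 1 was the higher. COL6A1 rose by 1.91 (SE 0.131, adjusted p = 6.19e-11) and COL6A2 by 2.40 (SE 0.158, adjusted p = 2.98e-11) in KO. In T133A, COL6A2 rose by 1.0 (SE 0.162, adjusted p = 0.000171), while COL6A1, at 0.41 (SE 0.133), missed the threshold with adjusted p = 0.0526 and passed it in 5 alternatives, the GC and length correction (adjusted p = 0.012) and the fit without T133A replicate 2 (log2 0.62, adjusted p = 0.000249) among them. T133A was below KO by 1.49 for COL6A1 (SE 0.129, adjusted p = 2.96e-09) and by 1.40 for COL6A2 (SE 0.148, adjusted p = 9.05e-08). The further chain of the usual assembly, COL6A3, singled out after its values were seen, had 0 and 2 counts in WT, 1 and 1 in T133A, against 7 and 3 in KO, too few to test.

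FACIT chains were represented chiefly by COL12A1, which links fibrils to their surroundings. It was at 207 and 204 CPM in WT, 148 in each T133A library, against 35.6 and 33.2 in KO. Replicates lay close together and the 3 groups were far apart, in the order WT, T133A, KO. COL12A1 (chr6:75084326-75206051, minus strand) fell by 0.48 (SE 0.0993, adjusted p = 0.00255) in T133A, a call lost without WT replicate 1 (adjusted p = 0.0684) and reduced to -0.29 by the GC and length correction, and by 2.58 (SE 0.108, adjusted p = 9.27e-15) in KO. T133A exceeded KO by 2.10 (SE 0.107, adjusted p = 2.66e-13). Per length it went from 16.5 CPM per kilobase in WT to 2.76 in KO, and so made up most of the difference in the FACIT sum.

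COL16A1, another fibril-associated chain, was at 3.57 and 5.63 CPM in WT, 11.4 and 8.82 in T133A, against 7.04 and 6.24 in KO. T133A was highest, and no group overlapped another. It rose by 1.13 (SE 0.222, adjusted p = 0.00141) in T133A, which missed the threshold without WT replicate 1 (adjusted p = 0.0543). KO exceeded WT by 0.52 (SE 0.23, adjusted p = 0.0656), a difference that passed without WT replicate 2 (log2 0.89, adjusted p = 0.0137), T133A replicate 1 (adjusted p = 0.0431) or T133A replicate 2 (adjusted p = 0.0363). T133A exceeded KO by 0.61 (SE 0.213, adjusted p = 0.027), which was lost with library size only, with DESeq2 and without T133A replicate 1, KO replicate 1 or KO replicate 2 (adjusted p between 0.0506 and 0.163). COL14A1, at 1.05 and 0.781 CPM in WT and 0.243 and 0.108 in KO, was lower in KO by 2.37 (SE 0.74, adjusted p = 0.0118), and this was lost with DESeq2 (adjusted p = 0.0513) and without WT replicate 1 or KO replicate 2 (adjusted p = 0.106 and 0.137). COL14A1 passed the low-count filter through WT alone, so it was bound to be lower in the other groups. COL21A1 (1.67 to 3.16 CPM) was called in no comparison.

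The multiplexins, basement membrane proteoglycans with a cleavable C-terminal domain, were led by COL18A1, the source of endostatin. COL18A1 lies on chromosome 21 (chr21:45405137-45513720, plus strand), 468016 bases before COL6A1. It was at 147 CPM in each WT library, 158 and 125 in T133A, against 228 and 225 in KO. KO was above all others, and WT lay inside the T133A range. COL18A1 rose by 0.62 (SE 0.11, adjusted p = 7.54e-05) in KO and stood 0.68 lower in T133A than in KO (SE 0.11, adjusted p = 3.45e-05), with no call for T133A against WT (log2 -0.06, adjusted p = 0.822). An opposite-strand gene, SLC19A1, overlaps it and had 4737 counts over the 6 libraries against 17962 for COL18A1, so shared reads are possible. COL15A1 had 3 and 1 counts in WT, 19 and 18 in T133A, against 4 and 1 in KO, and so was seen mainly in T133A. It passed the low-count filter through T133A alone, so it had to be higher there. The pooled T133A to WT ratio was 9.42 (3.39 to 36.4; adjusted p = 0.0095) and the T133A to KO ratio was 7.54 (2.96 to 24.6; adjusted p = 0.00371). The first call was lost without WT replicate 2 (adjusted p = 0.172) or T133A replicate 1 (adjusted p = 0.0518), and the second without KO replicate 2 (adjusted p = 0.0876).

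Of the 3 genes called higher than WT in T133A and not called in KO, COL7A1 had the highest level. Its product forms the anchoring fibrils that tie epithelial basement membrane to the stroma. COL7A1 (chr3:48564073-48595267, minus strand) was at 70.6 and 75.9 CPM in WT, 208 and 184 in T133A, against 104 and 73.7 in KO. Both T133A libraries were far above the rest, while KO replicate 2 lay within the WT range and KO replicate 1 above it. COL7A1 rose by 1.42 (SE 0.13, adjusted p = 4.65e-08) in T133A, and T133A exceeded KO by 1.15 (SE 0.128, adjusted p = 2.06e-07). KO against WT gave 0.27 (SE 0.13, adjusted p = 0.0872), which passed under the GC and length correction (adjusted p = 0.0333) with and without the replicate number as a block, without the low-count filter (adjusted p = 0.0394) and without T133A replicate 1 (adjusted p = 0.0497) or KO replicate 2 (log2 0.48, adjusted p = 0.00324).

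COL8A1, a short-chain collagen of vessel and corneal basement layers, had 23 and 28 counts in WT, 91 and 87 in T133A, against 2 in each KO library. The order was T133A, WT, KO with no overlap. COL8A1 rose by 1.83 (SE 0.296, adjusted p = 0.000178) in T133A. The pooled WT to KO ratio was 12.8 (4.69 to 48.6; adjusted p = 1.31e-05) and that of T133A to KO was 45.3 (17.4 to 168; adjusted p = 2.04e-09). COL26A1, an EMI-domain collagen, was at 31.7 and 31.8 CPM in WT, 17.4 and 17.3 in T133A, against 20.9 and 20.6 in KO. Replicates nearly coincided, and both altered groups lay below WT. COL26A1 fell by 0.87 (SE 0.133, adjusted p = 8.38e-05) in T133A and by 0.61 (SE 0.131, adjusted p = 0.000544) in KO. COL28A1 was lower in KO by 2.68 (SE 0.369, adjusted p = 3.51e-06), at 0.486 and 0.592 CPM against 2.86 to 4.13 in the other libraries.

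Transmembrane collagens were low. COL17A1, the hemidesmosome collagen of basal epithelial cells, was at 5.14 and 6.30 CPM in WT, 5.12 and 6.23 in T133A, against 4.61 and 2.91 in KO. KO was below the other groups, which coincided. COL17A1 fell by 0.62 (SE 0.247, adjusted p = 0.0456) in KO, which was lost with library size only (adjusted p = 0.0534), DESeq2 (adjusted p = 0.106) and no low-count filter (adjusted p = 0.0538), and without WT replicate 2 (adjusted p = 0.27) or KO replicate 2 (log2 -0.33, adjusted p = 0.377), and was -0.95 without KO replicate 1. T133A exceeded KO by 0.60 (adjusted p = 0.0577), which passed with RLE size factors (adjusted p = 0.0485) and without T133A replicate 1 or KO replicate 1 (adjusted p = 0.0264 and 0.0187). COL13A1, a transmembrane collagen of adhesion sites, was at 0.351 and 0.0558 CPM in WT, 0.287 and 0.588 in T133A, against 1.70 and 1.29 in KO. Only in KO did both libraries pass the level of the low-count filter, which favoured a higher value there. The pooled KO to WT count ratio was 7.43 (3.36 to 19.4; adjusted p = 0.00116; fitted log2 2.85, or 4.58 without WT replicate 1), and T133A was below KO by 1.76 (SE 0.576, adjusted p = 0.0184), which was lost with DESeq2 (adjusted p = 0.0769) and without T133A replicate 1, KO replicate 1 or KO replicate 2 (adjusted p = 0.145, 0.133 and 0.0604).

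**Figure D4:**
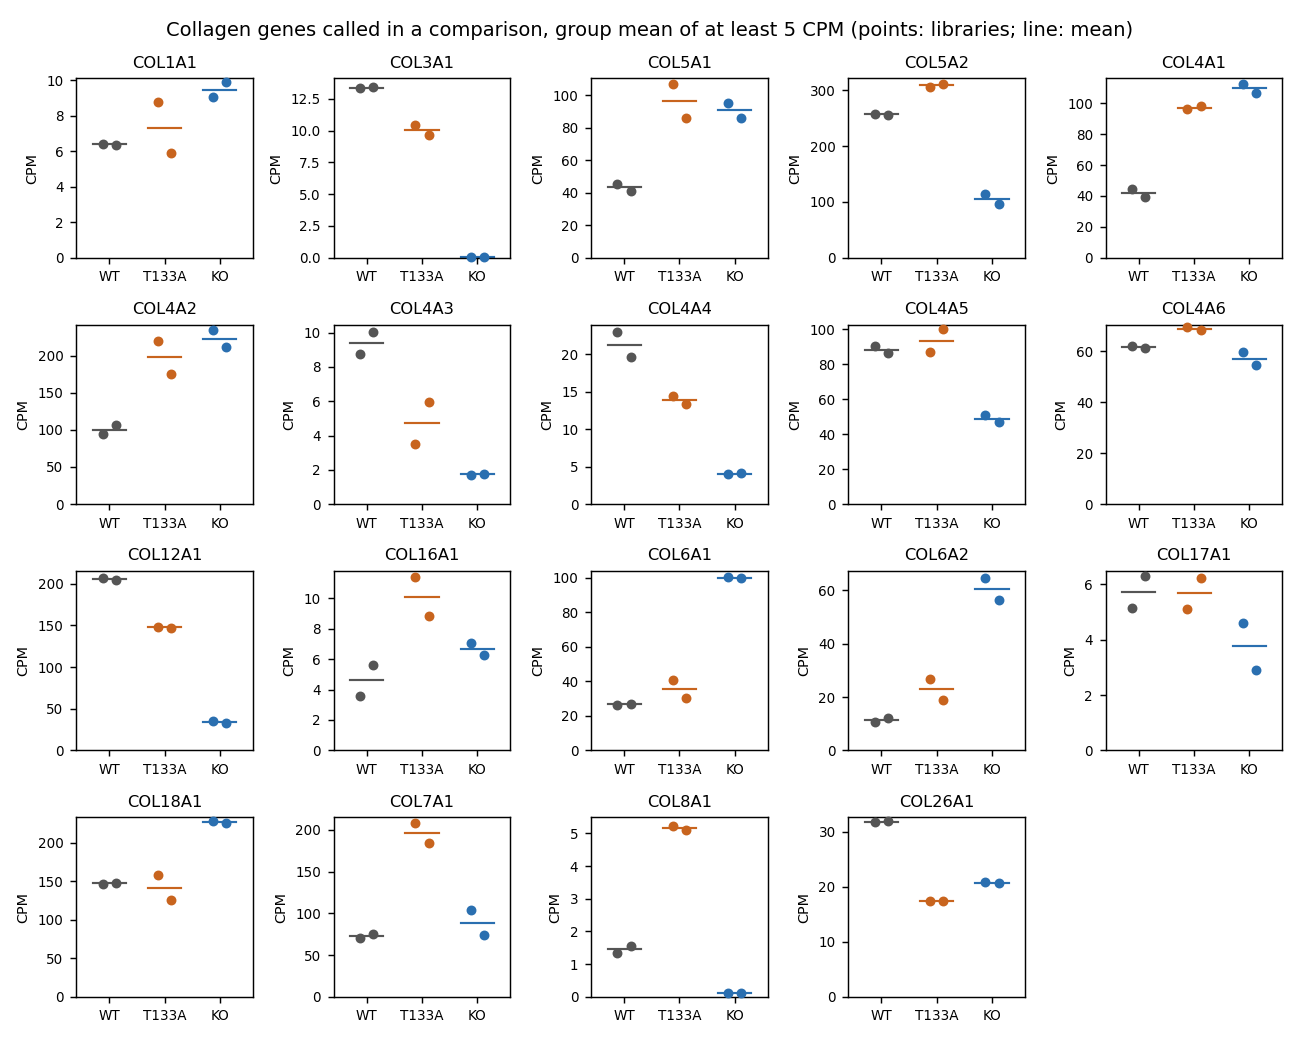
Level in CPM of the 19 collagen genes that were called in a comparison and averaged at least 5 CPM in a group; points are libraries, lines are group means, and each panel has its own linear axis from 0. KO is the lowest group for COL3A1, COL5A2, COL4A3, COL4A4, COL4A5 and COL12A1 and the highest for COL6A1, COL6A2 and COL18A1, while COL7A1 and COL8A1 are highest in T133A.

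The 16 members that were not tested had at most 16 counts in any library (COL24A1) and at most 34 in all 6. COL19A1 and COL23A1 had 0 counts throughout, which allows a level of up to 3 counts, or 0.161 to 0.182 CPM depending on the library. In the fibrillar class these were COL1A2, COL2A1 and COL24A1, in type VI COL6A3, COL6A5 and COL6A6, among the transmembrane chains COL23A1 and COL25A1, and among the others COL8A2 and COL10A1. The other 6 were FACIT chains, among them the 3 chains of type IX collagen. COL9A3 and COL10A1 overlap other genes, so their few counts are uncertain. Counts this low do not show whether such genes differed between the groups.

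Genes that make, export, bind and cut collagen were read from a list of 59, of which 51 were tested. As for the collagens, a gene could pass the filter through a single group, so the tested genes do not stand for the whole list. In KO, 27 were lower than WT (52.9%, where 23.0% of all tested genes were) and 10 were higher (19.6%, background 23.6%). In T133A, 7 were higher (13.7%, background 5.58%) and 2 were lower (3.92%, background 3.97%). Among the 7 was MMP1, which passed the filter through T133A alone. The 10 higher in KO included ADAMTS3 and MMP9, which passed it through KO alone. T133A exceeded KO in 28 (54.9%, background 20.3%) and was below it in 6 (11.8%, background 19.6%), ADAMTS3 and MMP9 among these 6. The machinery thus had, like the collagens, a larger share lower in KO than the tested genes as a whole, with its median at -0.38 for KO against WT.

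Among the 17 tested enzymes and chaperones of chain modification and folding, 10 were lower (58.8%, background 23.0%) and 3 higher (17.6%, background 23.6%) in KO, and 3 were higher in T133A (17.6%, background 5.58%). P4HA3, a catalytic subunit of prolyl hydroxylase, was at 11.3 and 10.1 CPM in WT, 16.3 and 17.0 in T133A, against 4.92 and 5.33 in KO. The groups did not overlap, with T133A highest and KO lowest. It fell by 1.07 (SE 0.179, adjusted p = 4.34e-05) in KO, and T133A exceeded KO by 1.70 (SE 0.175, adjusted p = 5.49e-08). The prolyl hydroxylase family genes P3H2 and P3H3 fell by 0.68 and 0.92 on the log2 scale in KO, whereas SERPINH1, the collagen chaperone HSP47, rose by 0.56 (SE 0.104, adjusted p = 0.000133). In T133A the rises were P4HA2 (log2 0.59, adjusted p = 0.0028), P4HA3 (0.63, adjusted p = 0.0129) and the lysyl hydroxylase gene PLOD2 (0.54, adjusted p = 0.00932). Without WT replicate 1 the calls of P4HA2 (adjusted p = 0.0722) and P4HA3 (adjusted p = 0.071) were lost, and without WT replicate 2 those of P4HA3 (adjusted p = 0.232) and PLOD2 (adjusted p = 0.0776), so that 1 of the 3 was left in each case. Under the GC and length correction the 3 higher in T133A became 5, with 2 lower (0 lower with the block as well). PLOD2 was also lost with library size only (adjusted p = 0.0653) and without T133A replicate 2 (adjusted p = 0.146). The 3 higher in KO became 2 with DESeq2, the replicate number as a block or without KO replicate 1, and 1 without WT replicate 1, WT replicate 2 or KO replicate 2. The 10 lower in KO became 7 with the replicate number as a block or with no low-count filter. They became 9 with DESeq2 or library size only. Under the GC and length correction 11 were lower and 4 higher in KO. T133A exceeded KO in 12 of the 17 (70.6%, background 20.3%), among them P3H3 (1.04) and FKBP14 (0.72), an isomerase of the endoplasmic reticulum. It was below KO for SERPINH1 alone (-0.72), which is 5.88% against a background of 19.6%.

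Of 14 tested genes of secretion and propeptide removal, 7 were lower (50%, background 23.0%) and 3 higher (21.4%, background 23.6%) in KO. Among the 3 was ADAMTS3, singled out after its values were seen, at 0.728 and 0.969 CPM in KO and at most 0.23 elsewhere. It passed the low-count filter through KO alone, so it had to be higher there than in the other groups. TLL1, a protease that trims procollagen, was at 10.0 and 12 CPM in WT, 15.2 and 15.9 in T133A, against 3.64 and 2.48 in KO. KO was far below the others, and T133A lay above WT without passing the threshold (log2 0.49, adjusted p = 0.0857; adjusted p = 0.0153 under the GC and length correction). TLL1 fell by 1.86 (SE 0.21, adjusted p = 2.04e-07) in KO, and T133A exceeded KO by 2.35 (SE 0.206, adjusted p = 3.95e-09). The export factors MIA2 and MIA3, which load bulky cargo at exit sites, fell by 0.83 and 0.56 in KO, and the vesicle coat gene SEC23A fell by 0.57. BMP1, the main procollagen C-proteinase, and the coat gene SEC24D stood 0.51 and 0.44 higher in T133A than in KO. The 1 call in T133A was MIA2, which fell by 0.49 (adjusted p = 0.0228) and lost its call without WT replicate 1, WT replicate 2 or T133A replicate 1 (adjusted p = 0.0602, 0.0896 and 0.33). The 3 higher in KO became 1 with DESeq2, with the replicate number as a block, under the GC and length correction with or without that block, and without WT replicate 1, WT replicate 2 or KO replicate 2. Under the GC and length correction the falls in KO were smaller, at -0.26 for MIA3 and -0.33 for SEC23A. Without T133A replicate 2, MIA2 stood at -0.79 in T133A against WT.

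Cross-linking enzymes diverged. LOXL2, a lysyl oxidase known to act on type IV collagen, was at 129.9 and 135 CPM in WT, 379 and 289 in T133A, against 325 and 306 in KO. Every altered library was above both WT libraries, as for COL4A1 and COL4A2. LOXL2 rose by 1.33 (SE 0.117, adjusted p = 2.49e-08) in T133A and by 1.25 (SE 0.116, adjusted p = 9.44e-09) in KO. LOX, which acts chiefly on fibrillar collagen, was at 2.45 to 4.77 CPM in WT and T133A and at 0.546 and 0.592 in KO. It fell by 2.45 (SE 0.401, adjusted p = 3.06e-05) in KO, and T133A exceeded KO by 2.73 (SE 0.393, adjusted p = 7.26e-06). LOXL4 was higher in KO by 0.91 (adjusted p = 0.0191), which was lost with DESeq2 (adjusted p = 0.0764) and without WT replicate 1, WT replicate 2 or KO replicate 1 (adjusted p = 0.0749, 0.0715 and 0.0877). T133A was below KO for LOXL4 (log2 -1.03, adjusted p = 0.0108), which was lost without T133A replicate 2 or KO replicate 1 (adjusted p = 0.149 and 0.058).

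Of 9 tested collagen receptors, 7 were lower in KO (77.8%, background 23.0%) and 0 were higher (background 23.6%). The collagen-binding integrin subunit gene ITGA1 was at 21.0 and 19.4 CPM in WT, 14.5 and 17.1 in T133A, against 3.58 and 4.52 in KO. It fell by 2.31 (SE 0.18, adjusted p = 5.06e-10) in KO and stood 1.96 higher in T133A than in KO (SE 0.183, adjusted p = 1.14e-08). ITGA2, the sister subunit, was instead at 95.5 and 88.7 CPM in WT, 169.6 and 184 in T133A, against 93.4 and 94.8 in KO. T133A stood apart, with a rise of 0.94 (SE 0.103, adjusted p = 9.47e-07) over WT and 0.91 over KO (SE 0.103, adjusted p = 2.44e-07). KO exceeded WT for ITGA2 only under the GC and length correction (log2 0.34, adjusted p = 0.0019), with or without the block. The discoidin domain receptor genes DDR1 and DDR2 fell by 0.64 and 2.22 in KO, and DDR1 and the endocytic receptor gene MRC2 were 0.73 and 0.62 higher in T133A than in KO. ADGRG1, an adhesion receptor for type III collagen, fell by 0.87 (SE 0.106, adjusted p = 4.06e-06) in T133A and by 0.66 (SE 0.105, adjusted p = 2.51e-05) in KO.

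Of 7 tested genes of collagen breakdown, 2 were higher in T133A (28.6%, background 5.58%), and 2 were higher and 2 lower in KO (28.6% each, close to the background of 23.6% and 23.0%). MMP1, the interstitial collagenase, was at 0.292 and 0.335 CPM in WT, 2.24 and 1.88 in T133A, against 0.121 and 0.108 in KO. It had 39 and 32 counts in T133A and 2 to 6 in each other library, so it passed the filter through T133A alone and had to differ. The share higher in T133A thus includes a call fixed by the filter, and the other call was MMP2. For MMP1 the T133A to WT value was 2.69 (SE 0.517, adjusted p = 0.0012), and KO was not called against WT (log2 -1.40, adjusted p = 0.173). The gelatinase gene MMP2 was at 17.5 and 19.6 CPM in WT, 41.7 and 32.9 in T133A, against 16 and 21.6 in KO, a rise of 1.01 (SE 0.156, adjusted p = 0.000103) in T133A. The cathepsin genes CTSK and CTSL fell by 1.30 and 0.65 in KO, and the prolidase gene PEPD, which recycles proline from collagen fragments, rose by 0.63 (adjusted p = 0.000803), or by 0.41 under the GC and length correction and 0.32 without KO replicate 2. T133A exceeded KO for CTSK (1.72) and MMP2 (0.98). It was below KO for PEPD (-0.66, adjusted p = 0.000702), a call lost without T133A replicate 2 (adjusted p = 0.131) and smaller without KO replicate 2 (-0.36). MMP9 was at most 0.91 CPM and passed the low-count filter through KO alone, so it had to be higher there. The share higher in KO thus also includes a call fixed by the filter. This MMP9 call (log2 2.48, adjusted p = 0.012) was lost with DESeq2 (adjusted p = 0.0671). It was also lost without WT replicate 2, KO replicate 1 or KO replicate 2 (log2 1.79, 2.36 and 2.59).

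**Figure D5:**
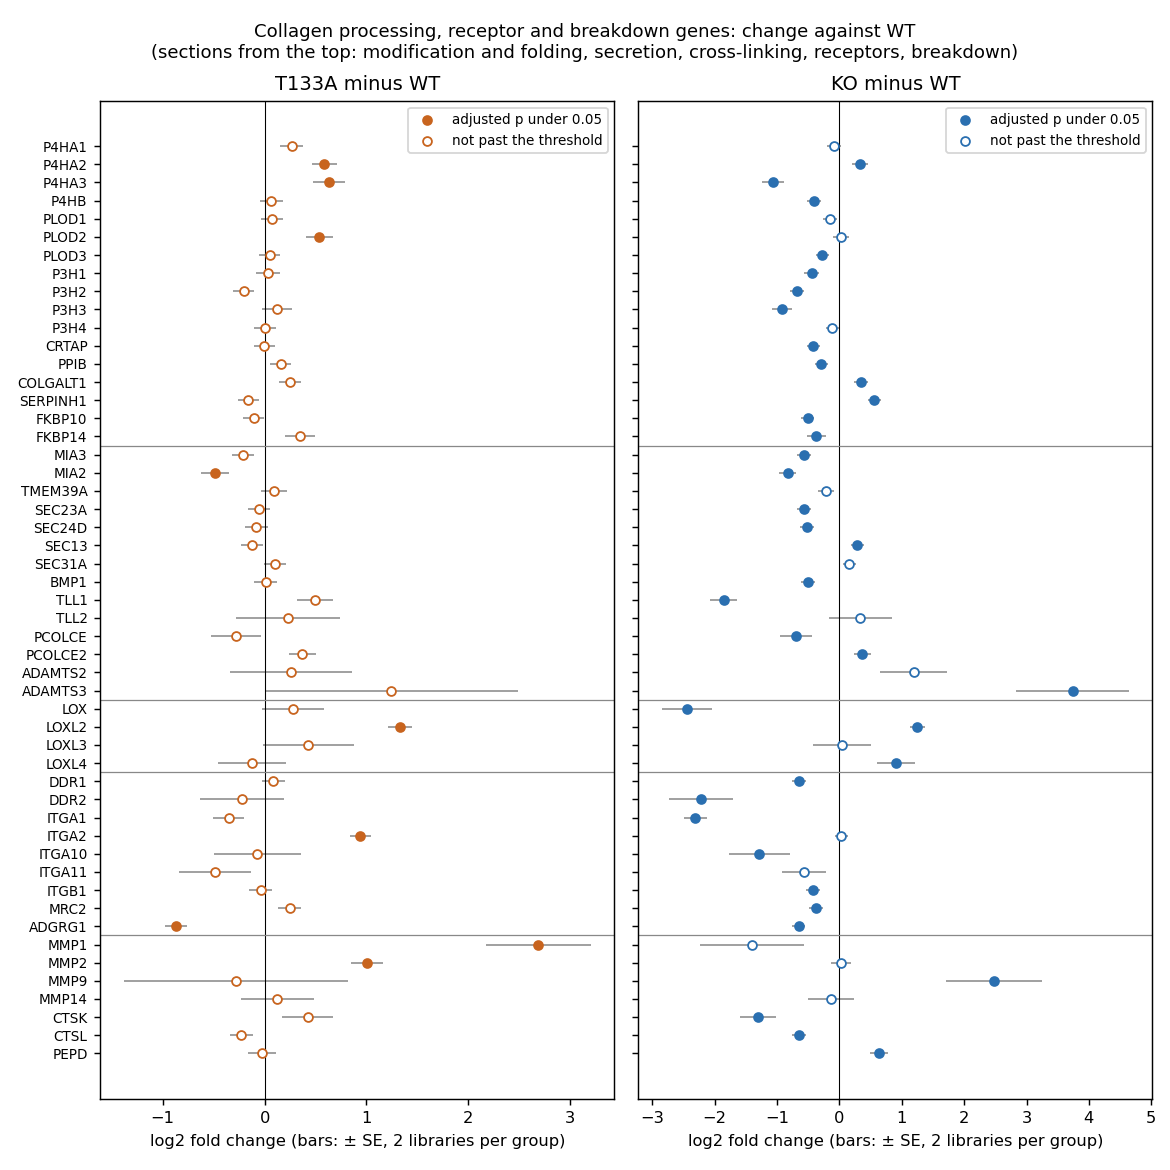
Log2 fold change against WT of the 51 tested genes that modify, export, cross-link, bind or break down collagen, with SE bars; T133A is on the left and KO on the right, on different horizontal scales, and filled points passed an adjusted p of 0.05. Most filled points of the KO panel lie left of 0, while T133A has 9 filled points, 7 of them right of 0.

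For COL4A1, COL4A2, COL5A1, COL6A2 and COL7A1, the most abundant genes called higher in T133A, the GC and length correction gave log2 values of 1.16 for COL4A1, 0.93 for COL4A2, 1.22 for COL5A1, 0.98 for COL6A2 and 1.49 for COL7A1. Among the genes called lower in T133A it gave -0.29 for COL12A1 (from -0.48), -0.46 for COL4A4 (from -0.61), -0.90 for COL4A3 and -0.89 for COL26A1, each past the threshold. Without T133A replicate 1, in which GC-rich genes stood higher, the 5 higher genes stood at 1.25 (adjusted p = 3.66e-13), 0.83, 1.0, 0.75 and 1.35 in the same order, and each still passed the threshold.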

How the data were processed

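RNA-seq of 6 libraries was analysed from the gene tables deposited by the authors. As deposited, these hold whole-number read counts with no normalization and FPKM values per gene, with gene positions and exon lengths. Per the submitters' processing notes, the tools were HISAT2 2.0.5 for one step and featureCounts 1.5.0 for another, on GRCh38. Neither the strand setting nor the annotation release is known here. The deposited FPKM values served only as a check (the library size they imply is 0.967 to 1.03 of each total). Of the gene names, 27 had been turned into dates and were restored from the identifiers.

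Counts were tested with edgeR 4.0.16 (R 4.3.3; robust quasi-likelihood fit, TMM scaling, filterByExpr), using group as the term in 1 fit of 6 libraries. Two-sided p-values were adjusted over all 16340 tested genes (Benjamini-Hochberg, threshold 0.05), and "called", "rose" and "fell" refer to that threshold. Rises, falls and differences of a gene are log2 fold changes, each SE is the fold change divided by the root of F, and CPM are TMM-scaled. Levels of different genes were compared per kilobase of the files' exon length. Ratios of pooled counts were scaled by effective library size and carry exact 95% intervals, which like the floor of 3 counts cover counting error only.

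The members, classes and lists were chosen with earlier results of these data known. Genes named are every collagen called in a comparison, with library values where a group averaged at least 5 CPM, the most abundant member of each class, HOXB9, and for each role of the pathway list up to 4 called genes with the smallest adjusted p per comparison. Further names are said to have been singled out. Promoter windows are from RefSeq. The procedure was tested on simulated counts. Alternative settings were library size only, RLE size factors, no low-count filter, a mean of at least 1 CPM, DESeq2 1.42.0, a fit of the compared groups alone, the replicate number as a block, a loess correction for GC content and length with and without that block, and each library left out in turn. A crossed replicate block was chosen after seeing the data. Tables and figures were made with matplotlib 3.10.9, scipy 1.17.1, pandas 2.3.3 and numpy 2.4.6 under Python 3.11.15.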

Additional observations from a re-analysis of the deposited data

How the results depend on the processing

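Over the alternatives run, 1273 values of the 28 tested collagen genes were recomputed. Of these 1210 kept their direction and their side of the threshold, 41 lost the call, 22 gained it and 0 changed sign among called values, and 21 of 84 pairs of gene and comparison had a changed call in at least 1 alternative. The counts of called collagens stayed within 1.5 times the main count except that the 4 lower in T133A than in WT became 2 without WT replicate 1. With each library left out in turn, the count in T133A against WT ran from 7 to 9 higher and from 2 to 4 lower, in KO against WT from 7 to 10 higher and from 11 to 14 lower, and in T133A against KO from 11 to 13 higher and from 3 to 5 lower. When a library is left out, the lone library of its group is assumed to vary like the others.

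Replicate numbers shared by the groups did not pair the libraries (correlation of deviations for same-numbered libraries -0.05 for T133A with WT, 0.02 for KO with WT and -0.12 for T133A with KO). With the replicate number as a block, 8 collagens were higher and 4 lower in T133A than in WT, 8 and 13 in KO, and 13 and 4 in T133A against KO, where the difference of COL4A6 was lost (adjusted p = 0.107). With the pairing of T133A and KO crossed, an alternative chosen after seeing the data, the last counts were 15 and 4.

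Counts over all genes moved more. For T133A with WT, 912 higher and 648 lower (58.5% of calls higher) became 668 and 818 (45.0%) with library size only, and 1666 and 808 (67.3%) with the GC and length correction, or 1401 and 677 with the block as well. They became 456 and 307 without WT replicate 1 or 467 and 373 without WT replicate 2. Without T133A replicate 2 they became 1447 and 1132. For KO with WT, 3862 higher became 2563 without WT replicate 1. The cause was not tested. Precision rests on 2 libraries per group, and members under about 1 CPM have few counts behind each value.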
